A study of Mus musculus with 10 samples.

Results

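A set of 10 genes whose products take up, activate or inactivate nucleoside, thiopurine and folate drugs was described in mouse leukemia initiating cells. They are the 4 equilibrative nucleoside transporter genes Slc29a1, Slc29a2, Slc29a3 and Slc29a4, the nucleoside and nucleotide enzyme genes Dck, Samhd1 and Nt5c2, the thiopurine methyltransferase gene Tpmt, and the folate genes Slc19a1 and Fpgs. The 10 genes were picked by name with earlier results of these libraries known, and all 10 were among the 13729 genes with enough reads to be tested. Slc29a4 was included because its level was lower after Poly(A:U), so its levels are given as a description with no test.

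Poly(A:U) is a synthetic double-stranded RNA of adenosine and uridine strands. Flow cytometry was used to sort leukemia initiating cells out of spleens, from pups aged 13 days that all carried the RFP/RET fusion transgene (Eu-RET pups), which the Eμ immunoglobulin enhancer drives in the B lineage. Of these pups, 5 had received 20 µg of Poly(A:U) and 5 had received 50 µl of PBS, and the cells were purified 7 days after treatment. No nucleoside, thiopurine or folate drug is named in the labels of either group, so the values are transcript levels in cells that were not described as exposed to these drugs.

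Nucleoside drugs such as cytarabine enter cells through nucleoside transporters and act only after kinases add phosphates. Thiopurines are activated through the purine salvage route and inactivated by methylation or by removal of the phosphate. Antifolates such as methotrexate enter through the reduced folate carrier and are held in the cell by a chain of glutamates. All of these drug classes are used against acute lymphoblastic leukemia in people.

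The stretches of 250 bases upstream of the RefSeq transcription start are shown for 3 genes with nearly all reads assigned to 1 transcript. Which start the cells use was not measured. Slc29a4 is the transporter gene whose level was lower after Poly(A:U), Slc29a3 is the transporter gene nearest to it in level, and Dck had the highest level of the 10. The sequences come from RefSeq on the GRCm38.p6 assembly and are given 5′ to 3′ on the strand of the gene. Capitals mark the GC box, GGGCGG on either strand, a motif bound by Sp family factors.
Slc29a4: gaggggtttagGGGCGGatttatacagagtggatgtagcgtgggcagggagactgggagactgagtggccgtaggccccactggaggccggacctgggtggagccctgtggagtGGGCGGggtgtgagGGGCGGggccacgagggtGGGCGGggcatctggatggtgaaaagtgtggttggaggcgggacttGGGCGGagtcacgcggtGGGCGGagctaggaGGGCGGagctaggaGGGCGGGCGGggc
Slc29a3: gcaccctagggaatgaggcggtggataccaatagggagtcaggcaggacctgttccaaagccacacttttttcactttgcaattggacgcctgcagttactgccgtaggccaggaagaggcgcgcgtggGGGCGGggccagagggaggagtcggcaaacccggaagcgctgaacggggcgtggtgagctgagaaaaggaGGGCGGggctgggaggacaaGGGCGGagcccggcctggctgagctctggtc
Dck: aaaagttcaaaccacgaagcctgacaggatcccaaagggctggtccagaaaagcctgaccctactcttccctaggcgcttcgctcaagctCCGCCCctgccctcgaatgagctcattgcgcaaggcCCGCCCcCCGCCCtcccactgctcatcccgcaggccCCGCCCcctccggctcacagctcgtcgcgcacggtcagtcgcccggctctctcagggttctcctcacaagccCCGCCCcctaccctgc
The Slc29a4 window lies at chr5:142701851-142702100 on the plus strand and holds 9 GC boxes, overlapping matches included. The Slc29a3 window lies at chr10:60752783-60753032 on the minus strand and holds 3. The Dck window lies at chr5:88764763-88765012 on the plus strand, holds 5, and includes the first 17 bases of the annotated Dck transcript. Among 32851 windows of the same length, 32.7% held at least 1 GC box and 0.0731% held 9 or more. The interferon-stimulated response element, searched on both strands as GAAA repeated after any 2 bases, was found in 2.98% of all windows and in 0 of the 24 windows of the 10 genes. A match is a description of the letters and shows no binding.

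The sorted cells carried the transcripts of B cell precursors. All 12 markers of that class were detected, among them Cd79a at 3248 ± 433 CPM and Igll1, a surrogate light chain, at 1345 ± 290 CPM (SD, n = 10). The libraries held 17849707 to 22572180 estimated reads on genes. Several libraries stood apart. PBS 1 to PBS 3, whose deposited file names start with the same code, had 43.4 to 51.5 CPM of the Y-linked gene Ddx3y, against 4.84 CPM in PBS 4 and 1.44 CPM or less in the others. Another sex-linked gene, Xist, went the other way, with only 0.054 to 0.341 CPM in PBS 1 to PBS 3. Its level was 116 CPM in PBS 4, 386 CPM in PBS 5 and 228 to 677 CPM across the Poly(A:U) libraries. No Poly(A:U) library had the pattern of PBS 1 to PBS 3, so sex and treatment cannot be fully told apart in the group comparison. The sum of 11 neutrophil markers was 30.1 to 271 CPM in Poly(A:U) and 52.9 to 1119 CPM in PBS, with 736 to 1119 CPM in PBS 1 to PBS 3. The sum of 11 macrophage markers was 39.9 to 60.7 CPM in Poly(A:U) and 43.7 to 203 CPM in PBS. Of that sum, Lyz2 was 106 to 143 CPM in PBS 1 to PBS 3, while C1qa was 0.738 to 2.19 CPM there. C1qa was 33.7 CPM in PBS 4 and 4.31 CPM or less in the other libraries. Markers of red cells summed to 1321 to 12923 CPM in Poly(A:U) and to 143.5 to 11954 CPM in PBS. In PBS 1 to PBS 3 this sum was 143.5 to 447 CPM, below every Poly(A:U) library, while it was 2580 CPM in PBS 4 and 11954 CPM in PBS 5. Markers of T cells summed to 198.5 CPM in PBS 4 and 25.4 CPM or less elsewhere. In PBS 4, Trbc1 was 84.9 CPM and Cd3e 55.8 CPM, while Cd3d and Cd8a were 0.153 CPM each. The part of these differences in the results below was not tested. Values without some of these libraries are given in places, but leaving libraries out removes several of the differences at once and cannot separate them.

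Per transcript length, the 10 genes spanned a wide range. Dck, which adds the first phosphate to deoxycytidine and cytarabine, had the highest level at 216 ± 38.2 TPM (transcript abundance per length, scaled to the library; SD, n = 10). In falling order of mean TPM it was followed by Nt5c2 (67.4 in Poly(A:U) and 72.6 in PBS), Slc29a1 at 62.5, Samhd1 at 48.2, Fpgs at 22.3, Slc19a1 at 21.4, Slc29a3 at 6.99, Slc29a4 at 4.81, Slc29a2 at 1.36 and Tpmt at 1.32. The mean TPM of Dck was 3.08 times that of Nt5c2, and the ranges of the 2 genes over the 10 libraries did not overlap. Gaps without overlap also lay between Slc19a1 and Slc29a3 and between Slc29a4 and Slc29a2, while all other neighbours in the order overlapped.

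**Figure D1:**
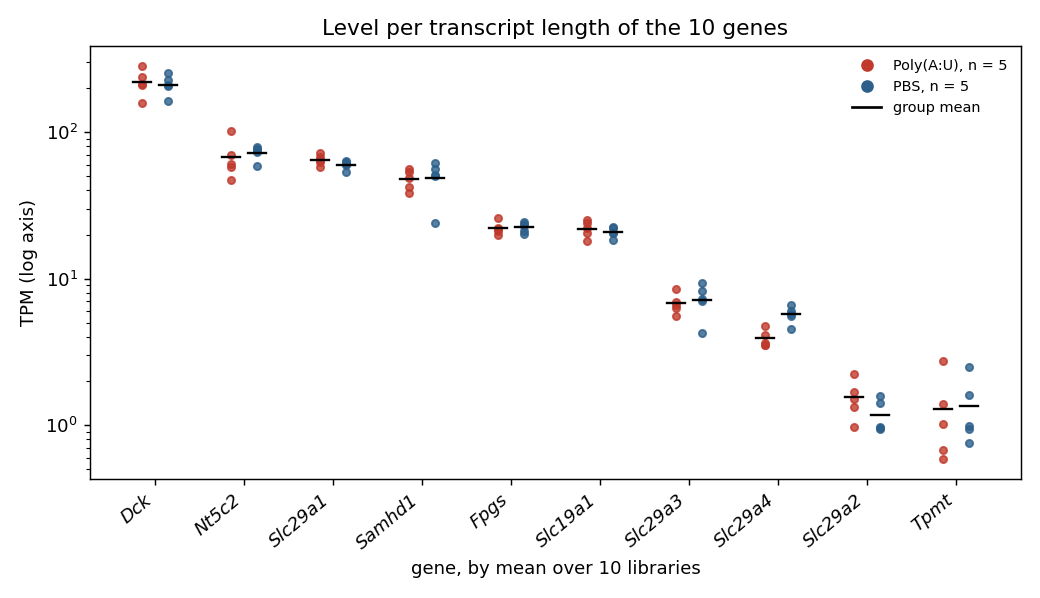
Level of the 10 genes per transcript length, in TPM on a log axis, with 1 point per library (5 Poly(A:U), left, and 5 PBS, right, in each pair) and a bar at each group mean. Dck stood above all others at 216 TPM on average, and Slc29a2 and Tpmt were lowest at 1.36 and 1.32 TPM.

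Among the 9 genes other than Slc29a4, 0 passed the edgeR quasi-likelihood test at an adjusted p below 0.05, where 0% of all 13729 genes passed. At an unadjusted p below 0.05 the count was again 0 of 9, where 7.3% of all genes passed. DESeq2 called 13 genes and limma voom with quality weights called 932, with 0 of the 9 genes among either. The log2 fold change, Poly(A:U) minus PBS, was negative for 5 of the 10 genes, as it was for 50.6% of all genes. These p-values measure the spread between pups as the series' design text describes them.

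The equilibrative transporters come first. Slc29a1 encodes ENT1, the carrier at the cell surface through which cytarabine and other nucleosides mostly enter. Its level was 90.8, 94.6, 85.7, 82.7 and 81.2 CPM in Poly(A:U) 1 to 5, against 76.8, 76.2, 83.0, 89.5 and 82.8 CPM in PBS 1 to 5. The groups overlapped, and PBS 4 was the highest PBS library. The log2 fold change was 0.09 ± 0.07 (SE; 95% interval -0.07 to 0.25; edgeR adjusted p = 0.746). Slc29a1 was steady between pups, with a within-group SD of log2 CPM at the 4.87th percentile of all tested genes.

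Slc29a2 encodes ENT2, a second carrier of the cell surface that also moves nucleobases. It had 2.97, 2.04, 2.24, 2.19 and 2.32 CPM in the Poly(A:U) libraries, against 1.71, 2.16, 2.11, 1.88 and 1.74 CPM in the PBS libraries. Poly(A:U) 1 was the highest library, and the other 4 Poly(A:U) libraries lay close to the upper PBS values. On the log2 scale the difference was 0.29 ± 0.21 (SE; 95% interval -0.16 to 0.75; edgeR adjusted p = 0.725). Each library held only 35 to 53 estimated reads of this gene, and the interval is wide for that depth.

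Slc29a3 encodes ENT3, which sits in lysosomal and other inner membranes. Its values were 28.0, 26.7, 27.1, 24.8 and 29.4 CPM in Poly(A:U), against 34.2, 34.3, 28.1, 18.9 and 28.6 CPM in PBS. PBS 4 was below every Poly(A:U) library, while PBS 1 and PBS 2 were above every Poly(A:U) library. The log2 fold change was -0.08 ± 0.14 (SE; edgeR adjusted p = 0.885). It took the opposite sign, 0.20, without PBS 1 to PBS 3, and was -0.23 without PBS 4 and Poly(A:U) 5 (edgeR adjusted p = 0.209).

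Slc29a4 encodes ENT4, also called the plasma membrane monoamine transporter, which carries monoamines and, at acid pH, adenosine. Its level was 7.73, 8.51, 8.34, 6.91 and 8.35 CPM in Poly(A:U) 1 to 5, against 12.8, 9.32, 11.9, 12.7 and 12.3 CPM in PBS 1 to 5. Every Poly(A:U) library lay below every PBS library, and PBS 2 was the PBS library nearest to the Poly(A:U) values. The groups averaged 7.97 ± 0.66 CPM in Poly(A:U) and 11.8 ± 1.44 CPM in PBS (SD, n = 5 each). The difference on the log2 scale was -0.57 ± 0.13 (SE). CPM values of the groups did not overlap for 0.809% of the 13729 genes, and for 0.32% with Poly(A:U) below PBS. Since this contrast chose the gene, nothing is read from that share.

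The Slc29a4 difference was described further under other scalings and libraries. In TPM the groups overlapped, with 4.77 TPM in Poly(A:U) 5 against 4.54 TPM in PBS 2. In the authors' deposited table, the Slc29a4 values averaged 7.97 in Poly(A:U), with 8.54 as the highest, and 11.7 in PBS, with 9.51 as the lowest. Without PBS 1 to PBS 3 the log2 fold change was -0.64. Of the PBS libraries, PBS 5 had neutrophil and macrophage sums within the Poly(A:U) ranges (52.9 and 43.7 CPM), and its Slc29a4 level was 12.3 CPM. PBS 2 had the highest neutrophil sum, 1119 CPM, and the lowest Slc29a4 level of the PBS libraries. PBS 1 and PBS 3 had neutrophil sums of 736 and 946 CPM, with Slc29a4 at 12.8 and 11.9 CPM. PBS 4 had the highest macrophage sum, 203 CPM, with Slc29a4 at 12.7 CPM. These are single libraries looked at after their values were seen. The part of neutrophils and macrophages in the Slc29a4 difference was not tested. In sorted bulk cells, fewer cells that express a gene and less of its RNA per cell cannot be told apart. All reads of Slc29a4 were assigned to 1 transcript, at chr5:142702101-142722490 on the plus strand. The annotated gene begins upstream of it, at chr5:142692512, and no reads were assigned to a transcript with that start.

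**Figure D2:**
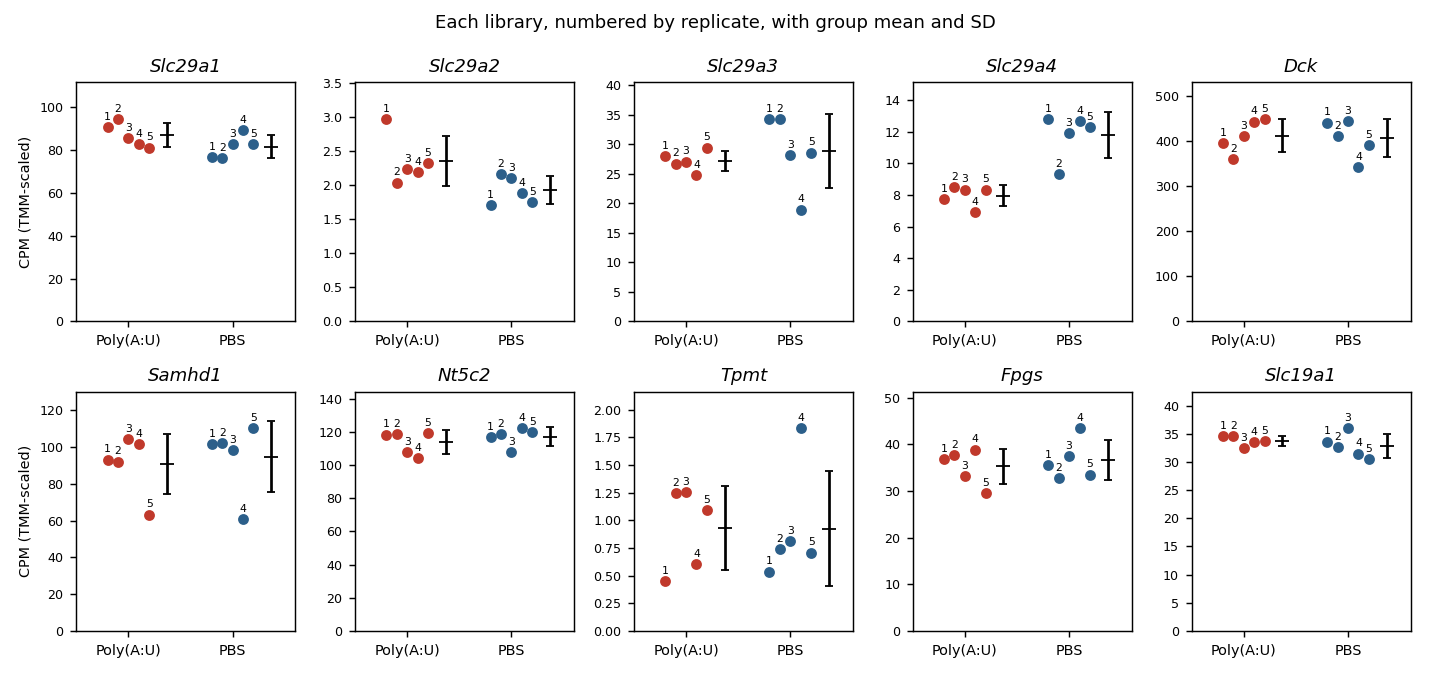
TMM-scaled CPM of each gene in each library, numbered by replicate, for Poly(A:U) (red, left) and PBS (blue, right), with the group mean and SD in black. Slc29a4 values were 6.91 to 8.51 CPM in Poly(A:U) and 9.32 to 12.8 CPM in PBS, and the groups overlapped for the other 9 genes.

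The make-up of the transporter family differed in the same way, as a share of the summed TPM of the 4 genes. Slc29a1 made up 84.2% ± 0.94 of the sum in Poly(A:U) and 81.0% ± 2.46 in PBS (SD, n = 5 each). Slc29a4 made up 5.09% ± 0.47 in Poly(A:U), with a range of 4.57% to 5.55%, and 7.66% ± 0.63 in PBS, with a range of 6.73% to 8.34%. Slc29a3 made up 8.77% in Poly(A:U) and 9.70% in PBS, and Slc29a2 made up 1.99% in Poly(A:U) and 1.59% in PBS. The share of Slc29a4 holds the same values that chose it and adds no test. On average over the 10 libraries, the TPM of Slc29a1 was 13.0 times that of Slc29a4, 8.93 times that of Slc29a3 and 45.9 times that of Slc29a2.

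**Figure D3:**
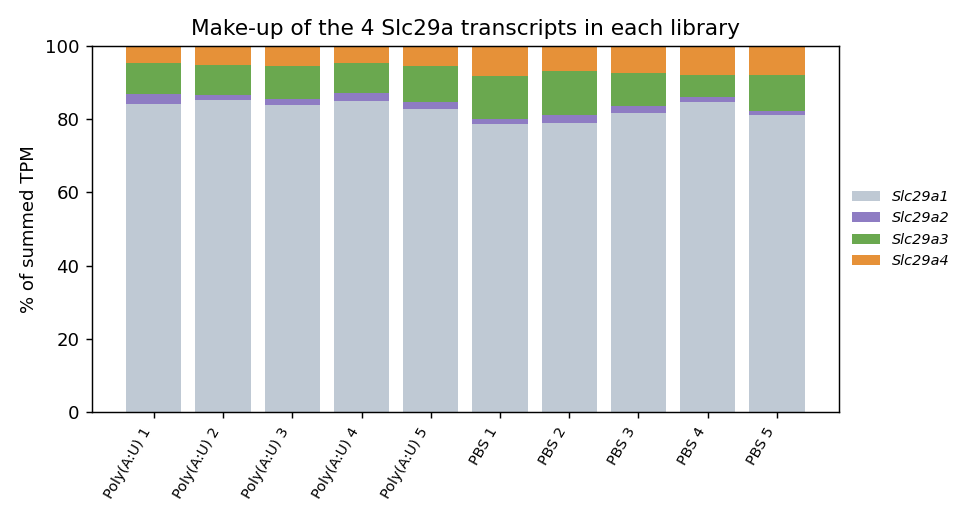
Share of each Slc29a gene in the summed TPM of the 4, in percent, by library. Slc29a1 held 78.7% to 85.1% of the sum in every library, and the Slc29a4 segment was 4.57% to 5.55% in Poly(A:U) and 6.73% to 8.34% in PBS.

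The 5 genes below varied most like Slc29a4 among pups of the same group, by Pearson's r of log2 CPM after the group means were taken out. The ranking used 10 libraries and 9416 genes averaging 5 CPM or more. Pseudogenes, antigen receptor segments and names starting with Gm and a digit or ending in Rik were left out of it. They were Gem with r = 0.90, Ybey with 0.87, Zfp275 with 0.86, Plxna3 with 0.81 and Zfp882 with 0.80. Between the groups they did not share the lower level of Slc29a4 in the same way. Their log2 fold changes were -0.10 for Gem, 0.28 for Ybey, 0.34 for Zfp275, 0.59 for Plxna3 and 0.15 for Zfp882. Gem encodes a small GTP-binding protein and Ybey an endoribonuclease of mitochondria. PBS 2 was the lowest of the 10 libraries for each of these 5 genes, and was the lowest PBS library for Slc29a4. These correlations describe these 10 libraries and carry no test.

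The nucleoside and nucleotide enzymes include the gene with the highest level. Dck had 396, 360, 412, 443 and 450 CPM in Poly(A:U), against 441, 411, 445, 342 and 391 CPM in PBS. The groups overlapped over nearly their whole ranges, with PBS 4 lowest. This gave a log2 fold change of 0.02 ± 0.10 (SE; 95% interval -0.18 to 0.23; edgeR adjusted p = 0.960). Its mean TPM stood at the 95.3th percentile of all tested genes, and Dck-201 carried 99.9% of its reads in both groups.

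Samhd1 breaks down deoxynucleoside triphosphates, and in human cells also the active triphosphate of cytarabine. It had 93.1, 92.1, 104, 102 and 63.2 CPM in Poly(A:U) 1 to 5, against 102, 102, 98.3, 60.9 and 110 CPM in PBS 1 to 5. Poly(A:U) 5 and PBS 4 were far below the other 8 libraries. The log2 fold change was -0.06 ± 0.17 (SE; edgeR adjusted p = 0.936), and it was 0.09 without PBS 1 to PBS 3. In TPM, Poly(A:U) 5, at 42.2, was above Poly(A:U) 2, at 38.4, while PBS 4 was again the lowest library, at 23.9.

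Poly(A:U) 5 and PBS 4, whose file names share a code, differed from the others in marker genes too. The 8 proliferation markers summed to 4231 CPM in Poly(A:U) 5 and 4248 CPM in PBS 4, against 2635 to 3406 CPM in the other 8 libraries. The 12 B cell precursor markers summed to 12061 CPM in Poly(A:U) 5 and 11171 CPM in PBS 4, where the lowest of the others was 14051 CPM. Single markers did not all follow their sums. Dntt was 152 CPM in Poly(A:U) 5 and 164 CPM in PBS 4, against at most 101 CPM in the others. Rag2 was highest in Poly(A:U) 5, at 203 CPM. Of the proliferation markers, Mki67 was highest in Poly(A:U) 5, at 1606 CPM. Pcna was 469 CPM there, within the 407 to 560 CPM of the other 8 libraries. The part of these differences in the Samhd1 values was not tested. Genes that varied most like Samhd1 were ranked over the same kinds of genes as for Slc29a4, after the Samhd1 values were seen. They were Cd40, a receptor of the B cell surface, with r = 0.99, Itfg2 and Fbxl12 with 0.97, and Taz and Tifa with 0.96. Cd40 had 7.40 CPM in Poly(A:U) 5 and 7.48 CPM in PBS 4, and 16.3 to 23.3 CPM in the others.

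**Figure D4:**
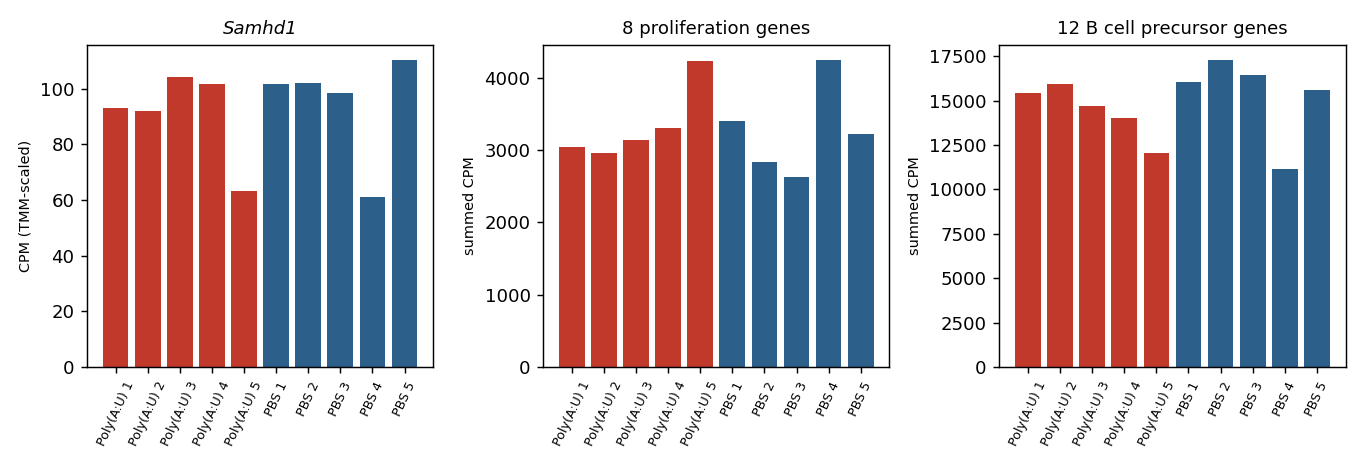
Samhd1 level (left), summed CPM of 8 proliferation genes (middle) and summed CPM of 12 B cell precursor genes (right) in each library, with Poly(A:U) in red and PBS in blue. Poly(A:U) 5 and PBS 4 had the lowest Samhd1, 63.2 and 60.9 CPM, the highest proliferation sums and the lowest B cell precursor sums.

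The level of Dck relative to Samhd1 sets phosphate addition beside removal. The log2 ratio of their TPM averaged 2.19 ± 0.33 in Poly(A:U) and 2.18 ± 0.34 in PBS (SD, n = 5 each), with a difference of 0.01 (exact permutation test, two-sided p = 0.921, and 0.921 adjusted over 3 ratios). The ratio was 2.75 in Poly(A:U) 5 and 2.76 in PBS 4, and 1.88 to 2.15 in the other libraries.

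Nt5c2 is a cytosolic nucleotidase that removes the phosphate from purine and thiopurine monophosphates, and activating mutations of its human counterpart occur in relapsed leukemia. It had 118, 119, 108, 104 and 119 CPM in Poly(A:U), against 117, 119, 108, 122 and 120 CPM in PBS. The groups lay within a narrow band that overlapped. On the log2 scale the difference was -0.04 ± 0.07 (SE; 95% interval -0.20 to 0.11; edgeR adjusted p = 0.882), and the within-group SD stood at the 2.88th percentile of all tested genes.

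Most Nt5c2 reads were assigned to transcripts that are not annotated as coding. Nt5c2-207, annotated as a target of nonsense-mediated decay, took 51.6% ± 7.96 of the reads in Poly(A:U) and 49.4% ± 5.80 in PBS (SD, n = 5 each). Transcripts annotated as protein coding took 27.4% ± 3.83 in Poly(A:U) and 26.0% ± 2.57 in PBS. The share of Nt5c2-207 was lowest in Poly(A:U) 5 at 38.4%, followed by PBS 4 at 42.1%. The assignment error between overlapping transcripts is not known from the files. Main transcript shares of the groups did not overlap for 0.554% of 10653 genes with more than 1 transcript, and for 0 of the 9 such genes here. In the authors' deposited table Nt5c2 averaged 110 ± 19.1 in Poly(A:U) and 123 ± 15.2 in PBS, and single values lay up to 21.4% from the CPM of the summed reads. Larger gaps of this kind were seen for Tpmt, up to 89.4%, and Slc29a2, up to 23.0%.

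Tpmt methylates and so inactivates thiopurines. It was close to the limit of what could be tested, with 8 to 36 estimated reads in a library. Its level was 0.45, 1.25, 1.26, 0.60 and 1.09 CPM in Poly(A:U), against 0.54, 0.74, 0.81, 1.83 and 0.71 CPM in PBS. PBS 4 was the highest library and the groups overlapped. The log2 fold change of 0.02 ± 0.41 (SE; 95% interval -0.88 to 0.91; edgeR adjusted p = 0.994) leaves a wide range of changes not detectable at this depth, and it was -0.43 without PBS 1 to PBS 3. Tpmt overlaps Kdm1b on the opposite strand over 1239 bases, and Kdm1b averaged 30.3 CPM. Since the sources used here do not state strand-specific counting, reads of this pair may not be told apart.

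Tpmt and Hprt act on the same thiopurine bases, Hprt by adding the ribose phosphate that activates them. The log2 ratio of Tpmt to Hprt in TPM averaged -7.17 ± 0.97 in Poly(A:U) and -6.89 ± 0.59 in PBS (SD, n = 5 each). The difference of -0.28 did not pass (exact permutation test, two-sided p = 0.611, and 0.921 adjusted over 3 ratios). In each library the Hprt level was far above that of Tpmt, with log2 ratios of -7.98 to -5.60.

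Slc19a1 encodes the reduced folate carrier, through which methotrexate enters. It had 34.6, 34.5, 32.5, 33.5 and 33.8 CPM in Poly(A:U), against 33.6, 32.7, 36.0, 31.5 and 30.6 CPM in PBS. This was the steadiest of the 10 genes between pups, at the 1.16th percentile of within-group SD. This gave a log2 fold change of 0.04 ± 0.07 (SE; 95% interval -0.12 to 0.20; edgeR adjusted p = 0.901). Slc19a1 overlaps Col18a1 on the opposite strand over 8825 bases, and Col18a1 averaged 1.59 CPM.

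Fpgs adds the glutamate chain that holds folates and methotrexate in the cell. It had 36.9, 37.8, 33.3, 38.9 and 29.6 CPM in Poly(A:U), against 35.6, 32.7, 37.5, 43.5 and 33.5 CPM in PBS. Poly(A:U) 5 was the lowest library and PBS 4 the highest. Between the groups the log2 fold change was -0.05 ± 0.10 (SE; edgeR adjusted p = 0.911). Fpgs overlaps the more abundant Eng on the opposite strand over 61 bases, and Eng averaged 180 CPM. The log2 ratio of Fpgs to Ggh, the hydrolase that removes the glutamate chain, averaged 3.75 ± 0.72 in Poly(A:U) and 3.70 ± 0.40 in PBS (exact permutation test, n = 5 each, two-sided p = 0.889, and 0.921 adjusted over 3 ratios).

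**Figure D5:**
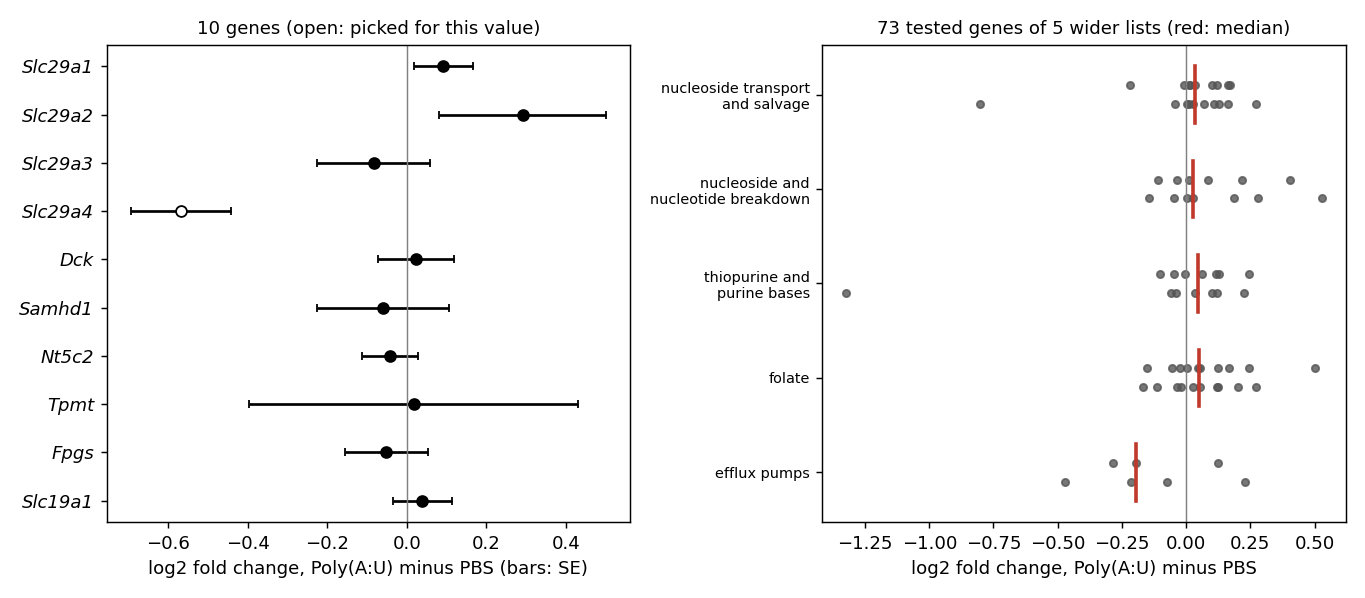
Left, log2 fold change (Poly(A:U) minus PBS) of the 10 genes with its SE, with Slc29a4 as an open point because it was picked for this value. Right, log2 fold changes of 73 genes of 5 wider lists, with the median of each list in red. Slc29a4 stood at -0.57, the other 9 genes lay between -0.08 and 0.29, and the list medians lay between -0.20 and 0.05. Without PBS 4 the efflux median was 0.000572 and the breakdown median 0.19.

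The 10 genes varied with each other between pups of a group only in part. Over the 45 pairs, the median within-group r was -0.02 over 10 libraries. There were 9 pairs with r below -0.5 and 3 with r above 0.5. Slc29a1 and Dck had the strongest relation, with r = -0.84, and -0.77 without PBS 4. Slc29a3 and Fpgs had r = -0.75, and -0.58 without PBS 4, and Slc29a1 and Slc29a3 had r = -0.68, and -0.51 without it. Dck and Nt5c2 had r = -0.57, and -0.52 without it. The remaining negative pairs were weaker than -0.5 without PBS 4. Slc29a3 and Tpmt went from -0.61 to -0.19, Samhd1 and Tpmt from -0.61 to -0.30, and Dck and Tpmt from -0.55 to -0.25. Dck and Fpgs went from -0.53 to -0.25, and Samhd1 and Nt5c2 from -0.50 to -0.44. Of the 3 positive pairs, Slc29a1 and Fpgs had r = 0.69, and 0.54 without PBS 4. Slc29a3 and Dck had r = 0.62, and 0.23 without it, and Slc29a3 and Samhd1 had r = 0.53, and -0.16 without it, so these last values rest on 1 library.

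Wider lists of the same pathways, 5 in all, held 88 further genes, of which 73 could be tested, and 0 of the 73 passed at an adjusted p below 0.05. At an unadjusted p below 0.05, 4 were higher in Poly(A:U), where 4.11% of all genes were, and 2 were lower, where 3.19% were. Together these 6 are 8.22% of the 73, near the 7.3% of all genes. The median log2 fold change was 0.03 over 19 genes of nucleoside transport and salvage, 0.03 over 13 of nucleotide breakdown, 0.05 over 14 of thiopurine and purine base handling, 0.05 over 20 of folate handling, and -0.20 over 7 drug efflux pumps. The median of all 13729 genes was -0.00241. These medians depend on PBS 4: without it, they were 0.11 for salvage, 0.19 for breakdown, 0.0873 for thiopurines, 0.16 for folates and 0.000572 for efflux pumps, against 0.0218 for all genes tested in that fit. Leaving out Poly(A:U) 2 gave -0.0170 for breakdown, and leaving out Poly(A:U) 4 gave -0.0031 for folates, so no direction is read from a list median. By limma voom with quality weights, 8 of the 73 genes were called (10.96%), where 6.79% of all genes were.

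The genes past the unadjusted threshold had varied roles. Nt5c3, a nucleotidase of pyrimidine monophosphates, averaged 44.9 ± 7.03 CPM in Poly(A:U) and 34.0 ± 5.02 CPM in PBS (SD, n = 5 each). Its log2 fold change was 0.40 ± 0.13 (SE; edgeR unadjusted p = 0.00707, adjusted p = 0.677). Dtymk, the kinase of thymidylate, had a log2 fold change of 0.27, Itpa, which hydrolyses inosine and thioinosine triphosphates, 0.24, and Dut, which hydrolyses dUTP, 0.22. Abcc5, an efflux pump of nucleotide analogues, had a log2 fold change of -0.29. Xdh, which oxidises thiopurines and other purine bases, had 0.67 to 1.59 CPM in Poly(A:U) and 1.02 to 5.56 CPM in PBS, with 4.05 to 5.56 CPM in PBS 1 to PBS 3 and 1.02 CPM in PBS 4, a log2 fold change of -1.32 (edgeR adjusted p = 0.677). None of these 6 genes passed after adjustment, and the groups overlapped for all 6.

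Several drug targets and salvage enzymes had high levels. Impdh1, which makes guanine nucleotides, averaged 278 ± 19.7 TPM in Poly(A:U) and 279 ± 49.6 TPM in PBS (SD, n = 5 each). Rrm2, a subunit of ribonucleotide reductase, averaged 214 ± 47.5 TPM in Poly(A:U) and 203 ± 31.9 TPM in PBS. Hprt averaged 175 ± 25.9 TPM in Poly(A:U) and 159 ± 10.54 TPM in PBS. Tyms, thymidylate synthase, averaged 113 ± 13.9 TPM in Poly(A:U) and 116 ± 48.3 TPM in PBS, and its PBS mean rests on PBS 4. In CPM, Tyms was 68.0 to 78.1 in Poly(A:U), and in PBS it was 157 in PBS 4 and 56.5 to 63.7 in the other 4 libraries. The groups overlapped, and the gene did not pass (edgeR adjusted p = 0.924). PBS 4 also had the highest sum of proliferation markers, whose part in this value was not tested. By contrast, 15 genes of the lists were too low to test, with at most 2.36 CPM in any library. They include the folate receptors Folr1 and Folr2, with at most 1 read each in a library, and the concentrative nucleoside transporter Slc28a3, with 0 reads in every library, a count that allows an expected number of up to 3 reads.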

How the data were processed

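RNA was sequenced from 10 libraries of sorted cells, 5 Poly(A:U) and 5 PBS, after isolation with the AllPrep DNA/RNA Mini kit. The authors deposited, per the file headers, estimated counts, TPM and effective length for 142333 transcripts per library. They also deposited a table of 13699 genes with a normalized signal per library, described here as the authors' deposited table. Tools named in the submitters' processing notes are edgeR 3.38.4 and DRAGEN, with mm10 as the build. For the counting settings, the sources used here say nothing. Estimated counts were summed per gene with GENCODE M21 and rounded, and the 538 transcripts with no gene (0.046% to 0.0695% of reads) were left out. The edgeR 4.0.16 quasi-likelihood test (TMM scaling, filterByExpr, robust, R 4.3.3) compared the groups, with Benjamini-Hochberg adjustment over all 13729 genes and a threshold of 0.05. CPM are scaled by TMM. DESeq2 1.42.0 and limma 3.58.1 were alternatives.

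Ratios used log2(TPM + 0.1) and an exact permutation test over 252 arrangements, whose smallest two-sided p is 0.00794. Columns of the files left unused numbered 0. The members and lists were chosen with earlier results of these data known. All 10 members were named, and of each wider list the 3 genes with the smallest p and the 2 with the highest TPM could be named, with others chosen after their values were seen. No pairing by replicate number was used in the main fit. The fit was tested on simulated data. Alternatives covered scaling, filters, tools, the replicate number and left-out libraries.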

Additional observations from a re-analysis of the deposited data

Results flagged for a closer look

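In 5 of 44 groups of 5 libraries looked at, 1 library lay far from the rest of its group by Dixon's test, which flags about 1 in 20 groups by chance. Slc29a4 had 9.32 CPM in PBS 2, below the other PBS libraries. Samhd1 had 60.9 CPM in PBS 4, below the others, and Tpmt had 1.83 CPM in PBS 4, above the others. The log2 ratio of Dck to Samhd1 was 2.75 in Poly(A:U) 5, and the log2 ratio of Fpgs to Ggh was 5.02 in Poly(A:U) 2, each above the other Poly(A:U) libraries.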

How the results depend on the processing

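The log2 fold change of Slc29a4 was negative under all 22 settings that gave a value, from -0.65 to -0.50, and with a filter of 10 CPM it could not be fitted. Since this contrast in the same libraries chose Slc29a4, nothing is read from its sign. The log2 fold changes of Nt5c2 (-0.16 to -0.01) and Slc29a2 (0.19 to 0.53) kept their sign. The count of genes called was 13 with DESeq2, 932 with limma voom and quality weights, and 0 to 18 when 1 library was left out (18 without PBS 5). Voom called 1 of 19 salvage, 3 of 13 breakdown, 2 of 14 thiopurine, 2 of 20 folate and 0 of 7 efflux genes, 10.96% of the 73, where it called 6.79% of all genes. Over all settings the list medians ran from -0.0154 to 0.11, -0.17 to 0.19, 0.0072 to 0.10, -0.0429 to 0.21 and -0.26 to 0.000572 in that order. None of the 9 tested members was called in any fit. With the replicate number as a block, 0 genes were called and Slc29a4 was at -0.56. The correlation of same-numbered libraries was -0.18 to 0.14, which cannot show whether the numbers pair them.

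Signs turned as follows, and the cause was not tested. With voom, Dck was -0.0252, Fpgs 0.0048 and Slc19a1 -0.0060. Without PBS 1 to PBS 3, Slc29a3 was 0.20, Samhd1 0.0882 and Tpmt -0.43. With the start of the file name as a covariate, Slc29a3 was 0.20, Samhd1 0.0848 and Tpmt -0.43. Alternatives chosen after seeing the data gave -0.0036 for Slc29a1, 0.30 for Slc29a3 and -0.70 for Tpmt with all shared name codes as terms, -0.0668 for Dck and 0.0756 for Fpgs without PBS 4 and Poly(A:U) 5, -0.0451 for Tpmt with reads rebuilt from TPM, and -0.13 for the ratio of Dck to Samhd1 without PBS 1 to PBS 3. With a pseudocount of 1 TPM the ratio of Fpgs to Ggh was -0.0060. Leaving out 1 library gave -0.0335 to 0.0618 for Dck, -0.0895 to 0.0186 for Fpgs, -0.18 to 0.0376 for Samhd1, -0.13 to 0.43 for Tpmt, -0.13 to 0.16 for Dck over Samhd1, and -0.27 to 0.18 for Fpgs over Ggh. On CPM in place of TPM, Slc29a1 took place 4 and Samhd1 place 3 in the order of levels. Reads limit Tpmt and Slc29a2 most.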
